A study of Mus musculus with 12 samples.

Results

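The 10 genes described here are markers of intestinal stem cells and targets of the Wnt pathway: Lgr5, Lrig1, Ephb2, Olfm4, Smoc2, Ascl2, Sox9, Axin2, Rnf43 and Znrf3. They were chosen by symbol from a table of 23284 genes counted by RNA sequencing in the terminal ileum, the last stretch of the small intestine, of 12 male mice. All 10 passed the filter on low counts, which kept 15866 genes for testing. The mice formed 4 groups of 3, with 1 library per mouse.

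Mice labelled Rag1-/- lack an enzyme that joins antigen receptor genes, and with it mature B and T cells. Tcra-/- mice lack the alpha chain of the T cell receptor but keep B cells and T cells with a gamma delta receptor. They were either co-housed, in cages shared with age-matched male wild type mice for 4 to 8 weeks, or separately housed. Wild type (WT) mice were C57BL/6, and all 4 groups were kept free of specific pathogens. The design text states 2 comparisons, mice labelled Rag1-/- against WT and co-housed against separately housed Tcra-/- mice. Each Tcra-/- group was also set against WT here, so 3 of the 4 comparisons share the WT mice. The labels do not say whether the sequenced WT mice were the cage mates, nor how many cages each group had. Mice of a cage share their housing, so the tests measure spread among mice and not among cages.

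Libraries held 42717064 to 50581616 counts in mice labelled Rag1-/-, 37061276 to 43496528 counts in co-housed Tcra-/- mice, 40294353 to 44574864 counts in separately housed Tcra-/- mice and 42067145 to 42312100 counts in WT mice. B cell markers were lowest in mice labelled Rag1-/-: their summed level was 1.40 to 1.91 CPM (a gene's count scaled to 1000000 counts of the normalised library) in mice labelled Rag1-/-, 79.0 to 112 CPM in co-housed Tcra-/- mice, 31.7 to 59.8 CPM in separately housed Tcra-/- mice and 116 to 136 CPM in WT mice. All 5 were also lower in separately housed Tcra-/- than in WT mice, with a median log2 fold change of -1.42. T cell markers summed to 6.10 to 8.45 CPM in mice labelled Rag1-/-, 22.1 to 49.0 CPM in co-housed Tcra-/- mice, 9.60 to 9.99 CPM in separately housed Tcra-/- mice and 61.7 to 95.4 CPM in WT mice. Rag1 itself had 1.84, 1.64 and 1.96 CPM in the mice labelled Rag1-/- and 0 reads in the other 9 mice. The labels do not name the deleted part of Rag1, so these reads do not check the genotype. All 8 pan-epithelial markers were tested and none was at 0, with summed levels of 10914 to 11505 CPM in mice labelled Rag1-/-, 10695 to 11224 CPM in co-housed Tcra-/- mice, 11025 to 11646 CPM in separately housed Tcra-/- mice and 11139 to 12034 CPM in WT mice.

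The intestinal lining is renewed from stem cells at the base of the crypts. Wnt ligands bind Frizzled receptors with Lrp5 or Lrp6 as coreceptor, beta-catenin then escapes its destruction complex, and together with Tcf factors it turns on target genes. R-spondins strengthen the signal: they bind Lgr receptors and clear Rnf43 and Znrf3, ubiquitin ligases that otherwise remove Frizzled from the cell surface. Several members are therefore parts of the pathway and products of it at once.

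Between genes, levels are compared only per kilobase of merged exons. Olfm4 had the highest mean level per length over the 12 mice, 169 ± 56.9 CPM per kb (SD, n = 12), followed by Axin2 with 18.1, Smoc2 with 17.6 and Lrig1 with 11.2 CPM per kb. Rnf43 had 5.35, Ephb2 4.47, Sox9 2.91 and Lgr5 2.38 CPM per kb. Ascl2 with 1.35 CPM per kb and Znrf3 with 0.905 CPM per kb were lowest. The least covered member, Ascl2, had 74 to 122 reads per library, and Olfm4 had 6314 to 17881.

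**Figure D1:**
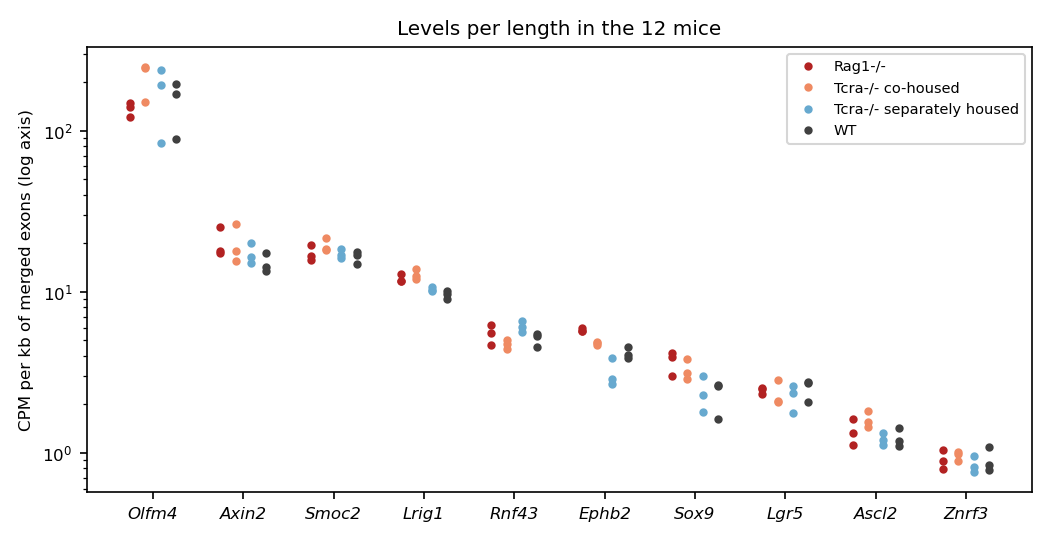
Level of each of the 10 genes per length, in CPM per kb of merged exons on a log axis, with 1 point per mouse and the groups side by side. Olfm4 stands above the other 9 genes in every mouse, with a mean of 169 CPM per kb, and Znrf3 has the lowest mean, 0.905 CPM per kb.

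The members differed in how much mice of the same group varied. Olfm4 was the most variable, with a within-group SD of 0.55 on the log2 CPM scale, larger than that of 92.9% of the genes tested. Sox9 followed with 0.32, Axin2 with 0.28 and Lgr5 with 0.23. Lrig1 was the steadiest, with an SD of 0.08, and only 13.4% of the genes tested had a smaller one. A difference of the same size could therefore be resolved in Lrig1 and missed in Olfm4.

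**Figure D2:**
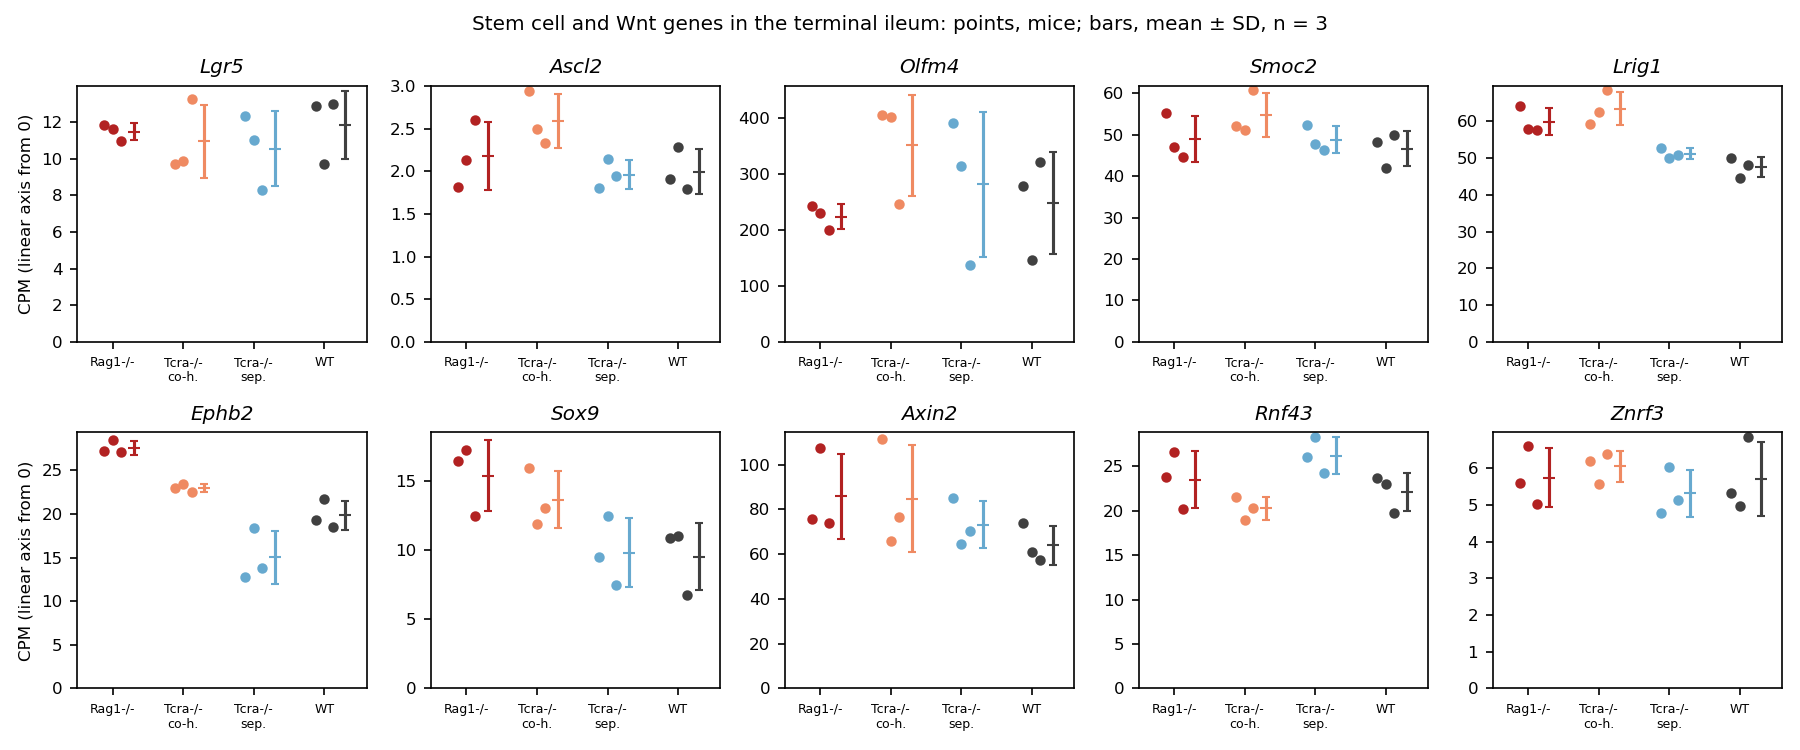
CPM of the 10 genes in the 12 mice, each panel on a linear axis from 0, with points for mice and bars for mean ± SD (n = 3). In Ephb2 no group overlaps its neighbour in the order of the levels. How many of all genes tested share this was not counted. Ephb2 has means of 27.6 CPM in mice labelled Rag1-/-, 23.0 CPM in co-housed Tcra-/- mice, 15.0 CPM in separately housed Tcra-/- mice and 19.8 CPM in WT mice. In every member other than Ephb2 and Lrig1 all neighbouring groups overlap.

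At an adjusted p under 0.01, the threshold that the study's design names, 2 of the 10 members differed between mice labelled Rag1-/- and WT mice, both higher (edgeR quasi-likelihood test, Benjamini-Hochberg over all genes tested). Among all genes tested 20.9% were called in this comparison, 9.42% higher and 11.5% lower. Between co-housed and separately housed Tcra-/- mice 3 members were called, 2 higher and 1 lower, while 38.8% of all genes were called, 21.1% higher and 17.7% lower. Co-housed Tcra-/- mice differed from WT in 1 member, which was higher, and 18.5% of all genes were called, 9.34% higher and 9.19% lower. Separately housed Tcra-/- mice differed from WT in 0 members, against 13.8% of all genes, 6.06% higher and 7.70% lower. In that comparison 2 members had an unadjusted p under 0.05, and DESeq2 called 1, Ephb2. Counting both directions, the share of members called by edgeR was near or below that of all genes in each of the 4 comparisons. With 10 members, 1 call more or fewer changes this: DESeq2 called 3 members between mice labelled Rag1-/- and WT mice, all higher.

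The median log2 fold change of the 10 members was 0.11 between mice labelled Rag1-/- and WT mice, against -0.023 over all genes tested. Between co-housed and separately housed Tcra-/- mice it was 0.26 against -0.0095 over all genes. It was 0.30 for co-housed Tcra-/- mice against WT and 0.054 for separately housed Tcra-/- mice against WT, where all genes had medians of 0.0014 and 0.0049. The median size of the change, sign aside, was 0.14 for the members and 0.24 for all genes between mice labelled Rag1-/- and WT mice. It was 0.31 for the members and 0.38 for all genes between the Tcra-/- groups. For co-housed Tcra-/- mice against WT it was 0.30 for the members and 0.23 for all genes, and for separately housed Tcra-/- mice against WT 0.14 and 0.22. These RNAs come from whole tissue, where fewer cells of a type and less RNA per cell cannot be told apart.

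**Figure D3:**
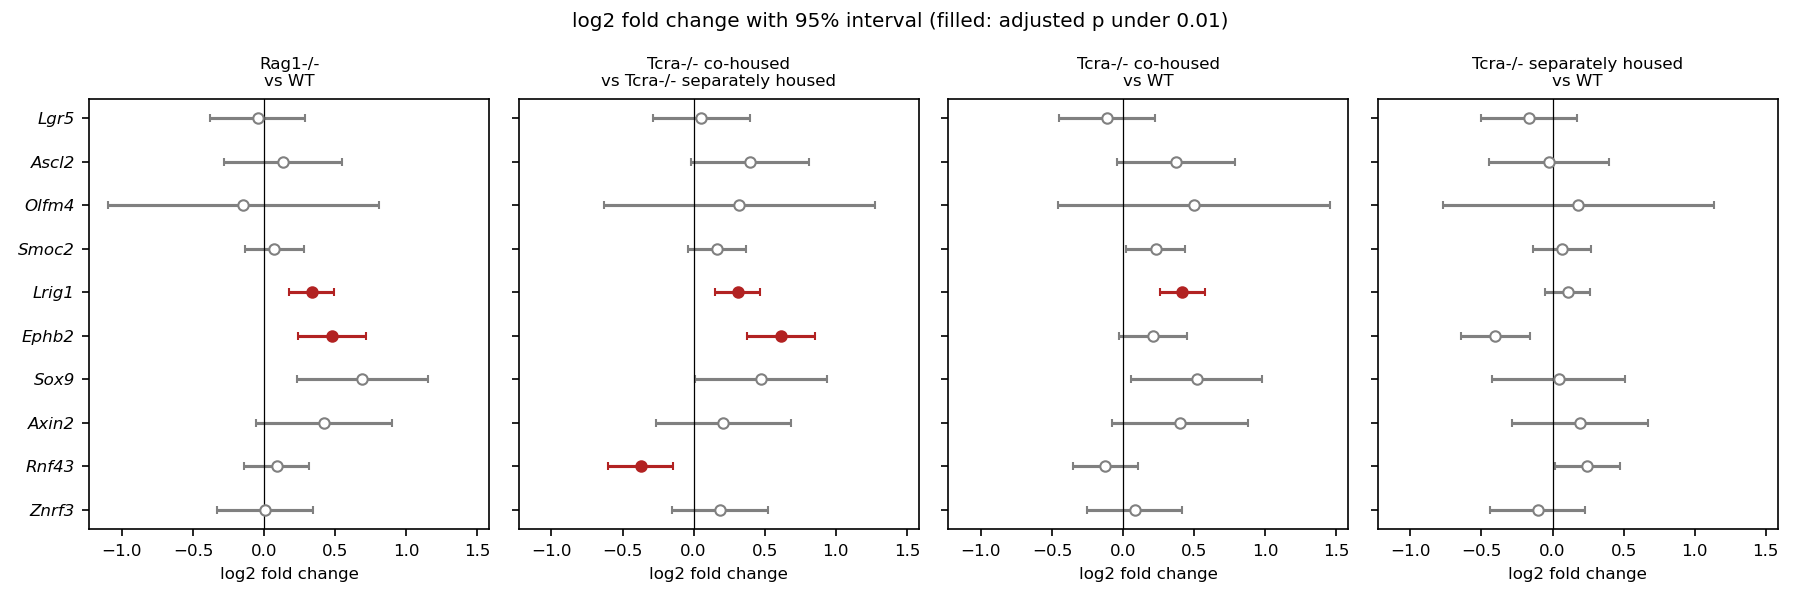
Log2 fold change of each of the 10 genes in the 4 comparisons, with the 95% confidence interval, filled and red where the adjusted p was under 0.01. Lrig1 and Ephb2 are called higher in the first 2 panels, Rnf43 is called lower in the second, Lrig1 is the 1 call of the third, and no gene is called in the fourth.

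Ephb2 and Lrig1, receptors of the cell surface, were the members called in both comparisons of the design text, and Rnf43 was called in the comparison of housing. The 250 bases before the start of these 3 genes are shown because these were the members that edgeR called in the comparison of housing, Ephb2 and Lrig1 higher and Rnf43 lower. They are taken from RefSeq on GRCm38.p6, a later build than the mm9 of the counts, are written 5′ to 3′ on the gene's own strand, and have each CG dinucleotide in capitals. The Ephb2 window is chr4:136836013-136836262 (minus strand), that of Lrig1 chr6:94700146-94700395 (minus strand) and that of the first Rnf43 start chr11:87662837-87663086 (plus strand).
Ephb2: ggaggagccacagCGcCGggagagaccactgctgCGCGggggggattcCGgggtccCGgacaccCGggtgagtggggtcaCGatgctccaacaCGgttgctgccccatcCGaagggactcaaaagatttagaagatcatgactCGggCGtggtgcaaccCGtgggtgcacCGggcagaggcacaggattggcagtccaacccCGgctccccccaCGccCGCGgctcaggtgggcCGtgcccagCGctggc
Lrig1: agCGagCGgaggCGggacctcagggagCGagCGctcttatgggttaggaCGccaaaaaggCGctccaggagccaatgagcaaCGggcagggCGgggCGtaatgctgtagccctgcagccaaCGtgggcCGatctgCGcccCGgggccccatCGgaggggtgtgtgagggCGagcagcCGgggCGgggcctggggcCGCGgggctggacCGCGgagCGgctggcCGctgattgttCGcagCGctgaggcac
Rnf43: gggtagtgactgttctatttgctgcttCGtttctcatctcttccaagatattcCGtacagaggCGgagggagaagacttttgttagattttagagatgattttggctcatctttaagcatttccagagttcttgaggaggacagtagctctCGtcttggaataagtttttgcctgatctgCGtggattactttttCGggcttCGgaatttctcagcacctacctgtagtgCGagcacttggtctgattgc

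The Ephb2 window holds 20 CG dinucleotides and the Lrig1 window 26, and 82.1% and 90.4% of the 32851 mouse windows of this length hold fewer. The window of the first Rnf43 start holds 8 and that of its second start, not shown, holds 2, against a median of 6 over all windows, and 57.0% and 18.8% hold fewer. Windows were on hand for 6 of the 10 members, 7 windows in all, since Rnf43 has 2 starts. The core of the Tcf and Lef motif, CTTTG, read on both strands as CTTTG or CAAAG, occurred in 0 of these 7 windows and in 48.6% of all windows. These letters describe the 250 bases only.

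Ephb2 is a receptor tyrosine kinase whose level falls from the crypt base upwards and which holds cells in place by repulsion from ephrin-B on their neighbours. It lies on mm9 chr4:136209525-136391850 (minus strand). Ephb2 had 27.2, 28.5 and 27.1 CPM in mice labelled Rag1-/-, 22.9, 23.5 and 22.5 CPM in co-housed Tcra-/- mice, 12.8, 18.4 and 13.8 CPM in separately housed Tcra-/- mice and 19.3, 21.7 and 18.5 CPM in WT mice. The groups stood in the order mice labelled Rag1-/-, co-housed Tcra-/-, WT, separately housed Tcra-/-, and no neighbours in this order overlapped. The share of all genes tested without such overlap was not counted. Ephb2 was 1.39-fold higher in mice labelled Rag1-/- than in WT mice (log2 fold change 0.48, SE 0.11, adjusted p = 0.00384, edgeR). It was 1.53-fold higher in co-housed than in separately housed Tcra-/- mice (log2 fold change 0.61, SE 0.11, adjusted p = 0.000292).

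The housing difference of Ephb2 passed the threshold whichever of the 6 mice compared was left out, with adjusted p up to 0.00254. The difference between mice labelled Rag1-/- and WT mice lay near the threshold. Without the mouse RAG1x3163 its adjusted p was 0.0118, without RAG1x3164 0.0174, without RAG1x3168 0.0101, without WTB6x3159 0.0178 and without WTB6x3167 0.0196. Scaling to library size alone moved the median of all genes by -0.17 and gave Ephb2 a log2 fold change of 0.31 (adjusted p = 0.0523), where the median of all genes was -0.19. Ephb2 had a log2 fold change of -0.40 in separately housed Tcra-/- mice against WT (95% interval -0.64 to -0.16, adjusted p = 0.0166). Without the mouse TCRaSepxT3, the highest of its group, that change was -0.58 with adjusted p = 0.000739.

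Lrig1, a transmembrane protein that dampens ErbB growth factor receptors and marks a set of crypt stem cells, lies on mm9 chr6:94554523-94650139 (minus strand). Lrig1 had 64.2, 58.0 and 57.6 CPM in mice labelled Rag1-/-, 59.4, 62.6 and 68.5 CPM in co-housed Tcra-/- mice, 52.9, 50.2 and 50.8 CPM in separately housed Tcra-/- mice and 50.0, 44.7 and 48.1 CPM in WT mice. The first 2 of these groups overlapped each other and lay above all 6 mice of the other 2, which did not overlap by a margin of under 1 CPM. Lrig1 was 1.26-fold higher in mice labelled Rag1-/- than in WT mice (log2 fold change 0.33, SE 0.07, adjusted p = 0.00266, edgeR). It was 1.24-fold higher in co-housed than in separately housed Tcra-/- mice (0.31, SE 0.07, adjusted p = 0.00250) and 1.33-fold higher in co-housed Tcra-/- than in WT mice (0.42, SE 0.07, adjusted p = 0.000555). In separately housed Tcra-/- mice against WT the change was 0.11 with adjusted p = 0.322.

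Lrig1 calls also lay near the threshold. Between mice labelled Rag1-/- and WT mice the adjusted p was 0.0194 without RAG1x3163 and 0.0161 without WTB6x3160, and between the Tcra-/- groups it was 0.0130 without TCRaCox3157 and 0.0122 without TCRaSepxT3. With library size alone the log2 fold changes were 0.17 (adjusted p = 0.118) and 0.20 (adjusted p = 0.0499), and all genes had medians of -0.19 and -0.12. Lrig1 shares 124 of its 4966 exonic bases with Slc25a26 on the other strand, and no source used here says whether counting used strand. Slc25a26, a mitochondrial carrier, had 5.73, 7.51 and 5.85 CPM in mice labelled Rag1-/-, 5.83, 6.47 and 5.45 CPM in co-housed Tcra-/- mice, 5.35, 4.47 and 6.47 CPM in separately housed Tcra-/- mice and 5.38, 5.14 and 4.74 CPM in WT mice. The other 9 members share no exonic base with another gene of the table.

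Lgr5, the R-spondin receptor that defines the cycling stem cells of the crypt base, did not pass the test in any comparison. It lies on mm9 chr10:114887370-115024836 (minus strand). Lgr5 had 11.8, 11.7 and 11.0 CPM in mice labelled Rag1-/-, 9.71, 9.90 and 13.3 CPM in co-housed Tcra-/- mice, 12.3, 11.0 and 8.29 CPM in separately housed Tcra-/- mice and 12.9, 9.72 and 13.0 CPM in WT mice. All 4 groups overlapped, and the group means ran from 10.6 to 11.9 CPM. The log2 fold change was -0.05 between mice labelled Rag1-/- and WT mice, with a 95% interval of -0.38 to 0.29, and 0.06 between co-housed and separately housed Tcra-/- mice, with an interval of -0.28 to 0.39. The second interval includes the change of Lrig1 between the same groups.

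Ascl2, a basic helix-loop-helix transcription factor that maintains the Lgr5+ state, was measured at a low level. It lies on mm9 chr7:150152727-150155169 (minus strand). Ascl2 had 1.81, 2.13 and 2.60 CPM in mice labelled Rag1-/-, 2.94, 2.49 and 2.33 CPM in co-housed Tcra-/- mice, 1.80, 2.14 and 1.95 CPM in separately housed Tcra-/- mice and 1.91, 2.29 and 1.79 CPM in WT mice. The 3 co-housed Tcra-/- mice lay above the 3 separately housed ones, and the difference did not pass the test (log2 fold change 0.40, 95% interval -0.02 to 0.81, adjusted p = 0.105). Between mice labelled Rag1-/- and WT mice the groups overlapped and the change was 0.13, with an interval of -0.29 to 0.55.

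Sox9, a transcription factor of crypt progenitors and Paneth cells, lies on mm9 chr11:112643524-112649071 (plus strand). Sox9 had 16.4, 17.2 and 12.4 CPM in mice labelled Rag1-/-, 15.9, 11.9 and 13.0 CPM in co-housed Tcra-/- mice, 9.50, 12.4 and 7.48 CPM in separately housed Tcra-/- mice and 10.8, 11.0 and 6.71 CPM in WT mice. All 3 mice labelled Rag1-/- lay above all 3 WT mice, and the log2 fold change of 0.69 was the largest of any member in any comparison (SE 0.21, 95% interval 0.23 to 1.15). Its adjusted p was 0.0249 by edgeR, which does not pass the threshold of 0.01, and 0.00371 by DESeq2, which does. The co-housed and separately housed Tcra-/- groups overlapped in 1 mouse each, with a change of 0.47 (95% interval 0.01 to 0.94, adjusted p = 0.0820).

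Olfm4, a secreted glycoprotein and strong marker of small intestinal stem cells that also responds to Notch, lies on mm9 chr14:80400109-80421737 (plus strand). Olfm4 had 242, 231 and 199.5 CPM in mice labelled Rag1-/-, 406, 402 and 246 CPM in co-housed Tcra-/- mice, 392, 314 and 138 CPM in separately housed Tcra-/- mice and 279, 146 and 321 CPM in WT mice. Mice of 1 group differed by more than the group means did, except among those labelled Rag1-/-. The 95% interval of the log2 fold change ran from -1.10 to 0.81 between mice labelled Rag1-/- and WT mice and from -0.63 to 1.27 between co-housed and separately housed Tcra-/- mice. These intervals were the widest of the 10 members.

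Smoc2, a secreted matrix protein enriched in Lgr5+ cells and also made by stromal cells, lies on mm9 chr17:14416513-14541797 (plus strand). Smoc2 had 55.3, 47.0 and 44.7 CPM in mice labelled Rag1-/-, 52.0, 51.2 and 60.8 CPM in co-housed Tcra-/- mice, 52.4, 47.8 and 46.2 CPM in separately housed Tcra-/- mice and 48.2, 41.9 and 49.8 CPM in WT mice. The co-housed Tcra-/- mice lay above the WT mice without overlap, and the difference did not pass the test (log2 fold change 0.23, adjusted p = 0.0905). The other comparisons gave 0.07 for mice labelled Rag1-/- against WT and 0.16 between the housing groups of Tcra-/- mice, with intervals of -0.14 to 0.28 and -0.04 to 0.37. None of the 6 fibroblast markers was called in any of the 4 comparisons by edgeR or DESeq2, or reached an unadjusted p under 0.05, and none was at 0 reads. Their summed level was 374 to 430.5 CPM in mice labelled Rag1-/-, 428 to 553 CPM in co-housed Tcra-/- mice, 415 to 630.5 CPM in separately housed Tcra-/- mice and 339 to 544 CPM in WT mice, and their part in the Smoc2 level was not tested.

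Axin2, Rnf43 and Znrf3 are induced by Wnt signalling and feed back to limit it. Axin2, a scaffold of the destruction complex, lies on mm9 chr11:108781663-108812095 (plus strand). Axin2 had 75.9, 108 and 73.8 CPM in mice labelled Rag1-/-, 112, 65.8 and 76.8 CPM in co-housed Tcra-/- mice, 85.0, 64.4 and 70.2 CPM in separately housed Tcra-/- mice and 73.9, 60.8 and 57.5 CPM in WT mice. The mouse RAG1x3164 and the mouse TCRaCox3155 stood above the rest of their groups. The change was 0.42 between mice labelled Rag1-/- and WT mice (95% interval -0.06 to 0.90, adjusted p = 0.172) and 0.21 between co-housed and separately housed Tcra-/- mice (-0.27 to 0.69, adjusted p = 0.442).

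Rnf43 was the only member that edgeR called lower in any of the 4 comparisons. It lies on mm9 chr11:87476589-87549041 (plus strand). Rnf43 had 23.8, 26.6 and 20.1 CPM in mice labelled Rag1-/-, 21.6, 19.0 and 20.3 CPM in co-housed Tcra-/- mice, 26.0, 28.4 and 24.3 CPM in separately housed Tcra-/- mice and 23.7, 23.0 and 19.7 CPM in WT mice. The co-housed mice lay below all separately housed ones, with means of 20.3 ± 1.28 CPM and 26.2 ± 2.03 CPM (SD, n = 3 each). That is 1.29-fold lower in co-housed mice (log2 fold change -0.37, SE 0.11, adjusted p = 0.00875, edgeR). The call was lost without any of 5 of the 6 mice, with adjusted p of 0.0120 without TCRaCox3155, 0.0485 without TCRaCox3156, 0.0196 without TCRaCox3157, 0.0220 without TCRaSepxT2 and 0.0460 without TCRaSepxT3.

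Znrf3, the partner ligase of Rnf43, did not follow it. It lies on mm9 chr11:5176332-5344850 (minus strand). Znrf3 had 5.61, 6.61 and 5.02 CPM in mice labelled Rag1-/-, 6.20, 5.58 and 6.39 CPM in co-housed Tcra-/- mice, 4.78, 6.03 and 5.14 CPM in separately housed Tcra-/- mice and 5.33, 4.96 and 6.86 CPM in WT mice. All neighbouring groups overlapped. The change was 0.19 between co-housed and separately housed Tcra-/- mice (95% interval -0.15 to 0.52) and 0.01 between mice labelled Rag1-/- and WT mice (-0.33 to 0.34).

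Likeness of profile was taken as the root mean square difference of log2 CPM over the 12 mice, each gene centred on its own mean. The genes most like Ephb2 were Polr3d (0.09), Grwd1 (0.10) and Zfp704 (0.11), and those most like Lrig1 were Nudt2 (0.05), Tmem85 (0.06) and Hax1 (0.06). Rnf43 was most like Srrd (0.09), Tmem223 (0.09) and Zfp119a (0.09). With 15866 genes tested, the nearest fellow member ranked 2160 for Ephb2, which was Sox9. Smoc2 was the nearest for Lrig1, at rank 386, and for Rnf43, at rank 5034. The measure also carries each gene's own spread between mice, with a within-group SD of 0.55 for Olfm4 and 0.08 for Lrig1. These ranks therefore cannot show whether members shared their group changes.

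The wider pathway was described with 9 lists of 111 genes in all, of which 104 were tested. Between mice labelled Rag1-/- and WT mice 13 of these were higher, 15 lower and 76 not called. Between co-housed and separately housed Tcra-/- mice 17 were higher, 25 lower and 62 not called. The pathway genes called made up 26.9% and 40.4% of those tested, against 20.9% and 38.8% of all genes. Of the 28 and 42 calls, 13 and 31 stayed called whichever of the 6 mice compared was left out, and none changed sign. The rest lost their call without some mouse, with adjusted p up to 0.0497 and 0.0408.

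**Figure D4:**
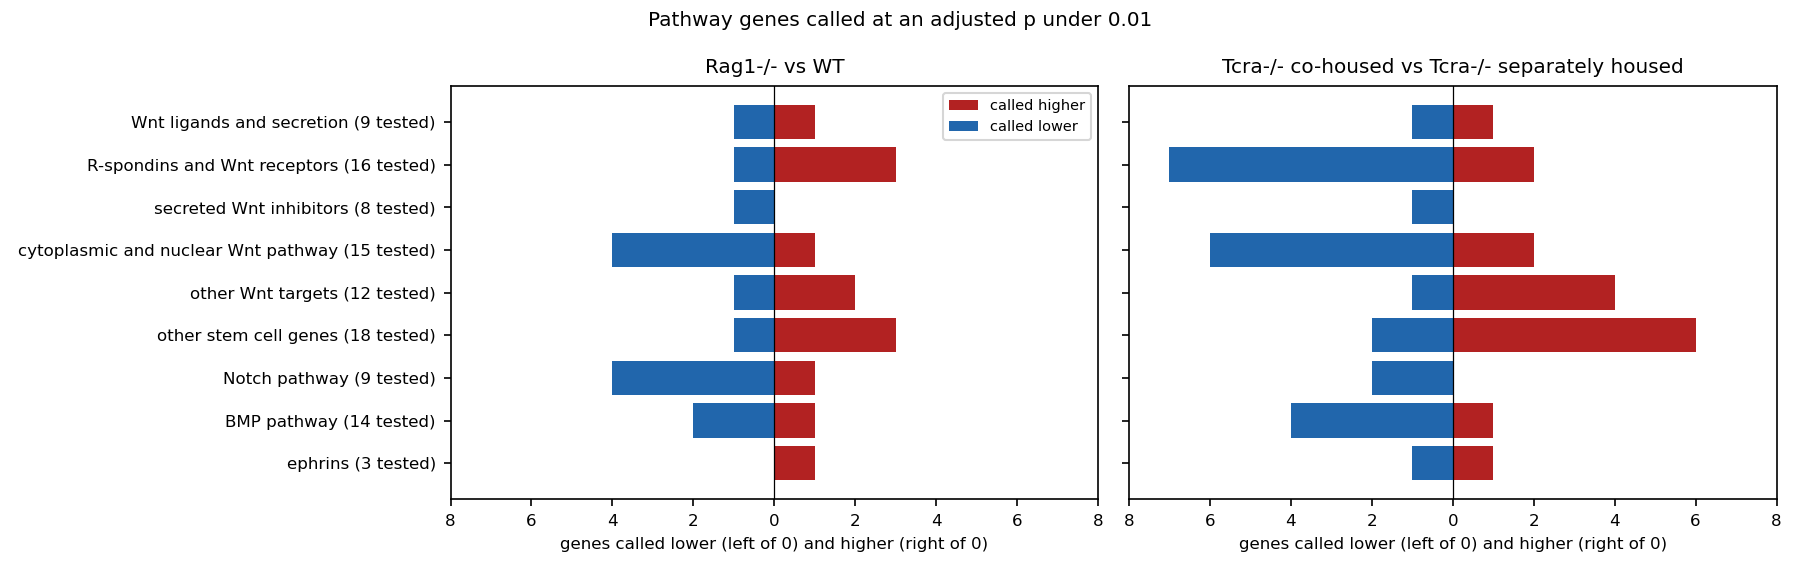
Number of genes called at an adjusted p under 0.01 in each of 9 pathway lists, with lower calls left of 0 and higher calls right of it. The largest count is the 7 of 16 R-spondin and Wnt receptor genes called lower in co-housed Tcra-/- mice, where 2 were called higher.

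Among Wnt ligands and secretion genes, 1 of 9 was higher and 1 lower in both comparisons, Wnt11 and Wnt6. Wnt11 averaged 1.99 ± 0.445 CPM in mice labelled Rag1-/-, 2.62 ± 0.783 CPM in co-housed Tcra-/- mice, 0.302 ± 0.185 CPM in separately housed Tcra-/- mice and 0.481 ± 0.330 CPM in WT mice (SD, n = 3 each). Its log2 fold change was 2.04 (SE 0.46) between mice labelled Rag1-/- and WT mice and 3.09 (SE 0.49) between the Tcra-/- groups. Wnt6 had changes of -1.40 (SE 0.37) and -2.11 (SE 0.37), at levels under 2 CPM in every mouse. Against WT, the Wnt6 call was lost whichever of the 6 mice compared was left out, and the Wnt11 call was lost without 3 of them. Neither call was lost between the Tcra-/- groups.

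Of 16 R-spondin and receptor genes, 3 were higher and 1 lower in mice labelled Rag1-/-, and 2 were higher and 7 lower in co-housed Tcra-/- mice against separately housed ones. Lgr4, the R-spondin receptor expressed throughout the crypt, was higher in both. Lgr4 averaged 383 ± 2.39 CPM in mice labelled Rag1-/-, 336 ± 28.0 CPM in co-housed Tcra-/- mice, 148 ± 12.1 CPM in separately housed Tcra-/- mice and 166 ± 1.17 CPM in WT mice (SD, n = 3 each). Its log2 fold changes were 1.20 (SE 0.07, adjusted p = 1.14e-08) and 1.18 (SE 0.07, adjusted p = 6.06e-09), and neither call was lost without any of the 6 mice compared. Lgr5, its close relative above, overlapped between all 4 groups.

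Fzd3, a Frizzled receptor, was also higher in both comparisons (0.87 and 0.63), the second call being lost without some mice. The coreceptor gene Lrp6 had a change of 0.32 in mice labelled Rag1-/- against WT and of -0.42 between co-housed and separately housed Tcra-/- mice. Its first call was lost without 5 of the 6 mice, under library size alone and under scaling to pan-epithelial markers. Fzd7 fell by 0.58 on the log2 scale in mice labelled Rag1-/-. Between the Tcra-/- groups the lower genes with the smallest p were Ryk (-0.66), Fzd8 (-1.32) and Fzd5 (-0.42), and Fzd6 (-1.06), Fzd4 (-0.89), Fzd1 (-0.73) and Lrp6 were the others.

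The list of secreted and membrane Wnt inhibitors gave 1 call in each comparison among 8 tested, both lower. They were Sfrp5 in mice labelled Rag1-/- (-2.36, SE 0.63, adjusted p = 0.00945) and Apcdd1 between the Tcra-/- groups (-1.44, SE 0.23). Sfrp5 was near the floor, with 16 reads over all mice labelled Rag1-/- and 86 over all WT mice. Its call was lost without some mice and under scaling to pan-epithelial markers. Of 15 cytoplasmic and nuclear pathway genes, 1 was higher and 4 lower in mice labelled Rag1-/-, and 2 were higher and 6 lower in co-housed Tcra-/- mice. Tcf7l2, the main Tcf factor of the intestinal epithelium, was higher in both (0.95 and 0.83), each call lost without some mice. Tcf7 and Lef1, which T cells also express, had changes of -1.81 and -3.03 in mice labelled Rag1-/-, the call of Lef1 being lost without 4 of the 6 mice. Lef1 was near the floor, with 8 reads over all mice labelled Rag1-/- and 70 over all WT mice. Tcf7 had 0.64 in co-housed against separately housed Tcra-/- mice, lost without some mice and under library size alone. All 7 T cell markers were lower in mice labelled Rag1-/- than in WT mice and 5 of 7 were higher in co-housed than in separately housed Tcra-/- mice, and their part in the Tcf7 and Lef1 levels was not tested.

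Gsk3b, a kinase of the destruction complex, had a change of -0.57 (SE 0.06) between co-housed and separately housed Tcra-/- mice, followed by Bcl9l (-0.82) and Dvl1 (-0.46). In mice labelled Rag1-/- the further lower genes were Dvl2 (-0.59) and Bcl9l (-0.50), both lost without some mice.

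Of 12 further Wnt targets, 2 were higher and 1 lower in mice labelled Rag1-/-, and 4 were higher and 1 lower in co-housed against separately housed Tcra-/- mice. Ccnd1, the cyclin that drives entry into the cell cycle, averaged 234 ± 25.6 CPM in mice labelled Rag1-/-, 285 ± 22.3 CPM in co-housed Tcra-/- mice, 45.5 ± 5.50 CPM in separately housed Tcra-/- mice and 107 ± 15.6 CPM in WT mice (SD, n = 3 each). Its changes were 1.12 (SE 0.12) and 2.65 (SE 0.12). Ephb3, the sister receptor of Ephb2, was higher in both as well, by 0.78 (SE 0.14) and 0.89 (SE 0.15), and no call of Ccnd1 or Ephb3 was lost without any of the 6 mice compared. Myc (1.21) and Cd44 (0.94) were higher and Sp5 (-1.33) lower between the Tcra-/- groups, and Ccnd2 (-0.35) was lower in mice labelled Rag1-/-. The calls of Cd44, Sp5 and Ccnd2 were lost without some mice.

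The ephrin list held 3 tested genes, and Efnb2, a ligand of Ephb2, was higher in both comparisons. Efnb2 averaged 129 ± 25.6 CPM in mice labelled Rag1-/-, 123 ± 7.56 CPM in co-housed Tcra-/- mice, 74.2 ± 5.93 CPM in separately housed Tcra-/- mice and 77.5 ± 4.21 CPM in WT mice (SD, n = 3 each). Its changes were 0.74 and 0.73 (SE 0.11 each). Efnb1, another Ephb2 ligand, was lower in co-housed than in separately housed Tcra-/- mice (-0.46, SE 0.07).

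Other stem cell genes gave 3 higher and 1 lower of 18 in mice labelled Rag1-/-, and 6 higher and 2 lower in co-housed against separately housed Tcra-/- mice. Aqp4, a water channel, averaged 69.6 ± 5.23 CPM in mice labelled Rag1-/-, 47.0 ± 8.49 CPM in co-housed Tcra-/- mice, 14.0 ± 4.21 CPM in separately housed Tcra-/- mice and 13.1 ± 3.96 CPM in WT mice (SD, n = 3 each). Prom1, a membrane protein used as a stem cell marker, had changes of 0.94 and 0.99 (SE 0.12 each). Ly6a, a surface protein linked to epithelial repair and also found on lymphoid and endothelial cells, had 1.20 and 3.42, the first call being lost without some mice. Clu, a secreted chaperone that marks revival stem cells and is made by several other cell types, had -2.05 in mice labelled Rag1-/- and 0.89 in co-housed Tcra-/- mice, the second call being lost without some mice. Between the Tcra-/- groups Soat1 (0.60) and Cdca7 (0.65) were higher, and Tert (-1.41) and Cdk6 (-0.79) lower, with Cdk6 lost without some mice.

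Notch and BMP signals act beside Wnt in the crypt, Notch holding progenitors back from the secretory fate and BMP limiting stem cells towards the villus. Of 9 Notch genes, 1 was higher and 4 lower in mice labelled Rag1-/-, and 2 were lower in co-housed against separately housed Tcra-/- mice. Dll1, a Notch ligand, had changes of -0.70 (SE 0.10) and -0.48 (SE 0.10), and Atoh1, the factor of secretory cells, had -0.55 and -0.47, both lost without some mice. Notch2 (-0.48) and Lfng (-0.76) were lower and Dll4 (0.59) higher in mice labelled Rag1-/-, with Lfng and Dll4 lost without some mice. Of 14 BMP genes, 1 was higher and 2 lower, and 1 higher and 4 lower. Id2, which is induced by BMP and also abundant in innate lymphoid cells, had -0.91 (SE 0.09) and -1.02 (SE 0.09), while Id1, another BMP target, had 0.56 and 0.57, both lost without some mice. Bmp2 had -0.53 in each comparison, the first call being lost without some mice. Between the Tcra-/- groups Bmp4 (-1.47) and Bmpr1a (-0.25) were lower, with Bmpr1a lost without 5 of the 6 mice.

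By median, markers of dividing crypt cells were higher and those of mature enterocytes lower in both comparisons of the design text. All 14 proliferation markers were higher in co-housed than in separately housed Tcra-/- mice, with a median log2 fold change of 1.03, and 2 of 14 were higher in mice labelled Rag1-/- than in WT mice, with a median of 0.29. Their summed level was 879 to 945 CPM in mice labelled Rag1-/-, 994 to 1144 CPM in co-housed Tcra-/- mice, 447 to 622 CPM in separately housed Tcra-/- mice and 667 to 837 CPM in WT mice. Of 12 mature enterocyte markers, 11 were lower in co-housed than in separately housed Tcra-/- mice (median -1.29) and 6 were lower in mice labelled Rag1-/- than in WT mice (median -0.72). Their sums were 26832 to 31060 CPM in mice labelled Rag1-/-, 24553 to 31652 CPM in co-housed Tcra-/- mice, 43097 to 49728 CPM in separately housed Tcra-/- mice and 34026 to 36970 CPM in WT mice. None of these markers was at 0 reads, and their part in the levels of Ephb2, Lrig1 and Rnf43 was not tested.

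**Figure D5:**
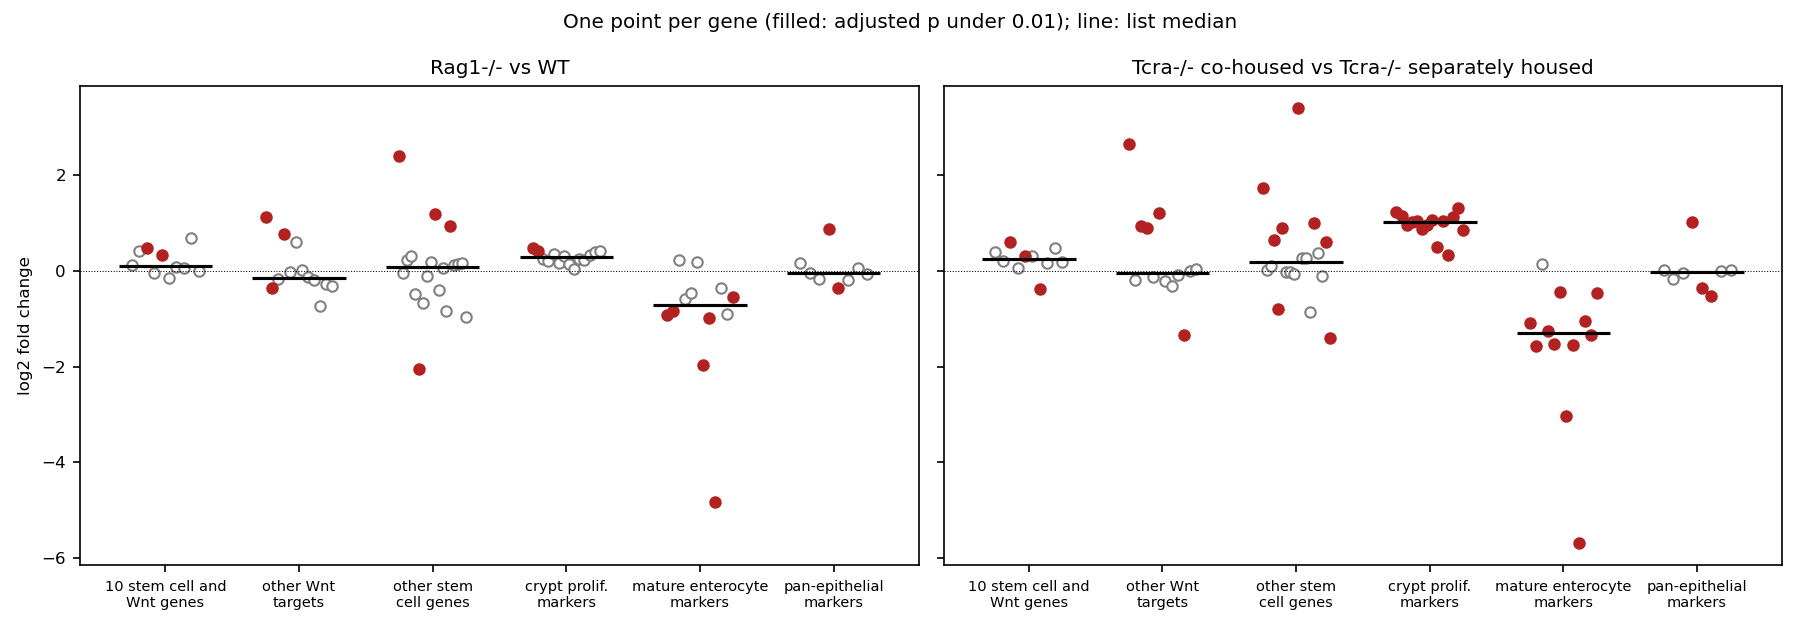
Log2 fold change of each gene of 6 lists in the comparisons of the design text, 1 point per gene, filled and red where the adjusted p was under 0.01, with a line at the list median. The 10 stem cell and Wnt genes have medians of 0.11 and 0.26, while the proliferation markers have medians of 0.29 and 1.03 and the mature enterocyte markers -0.72 and -1.29.

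The pan-epithelial markers had medians of -0.048 and -0.023 in the same comparisons, with Elf3 higher in both and Epcam lower in both. Scaling all libraries to these markers left Ephb2 at 0.44 (adjusted p = 0.0106) and Lrig1 at 0.29 (adjusted p = 0.0274) between mice labelled Rag1-/- and WT mice. Between co-housed and separately housed Tcra-/- mice it left Ephb2 called, Lrig1 at 0.31 (adjusted p = 0.0119) and Rnf43 at -0.37 (adjusted p = 0.0136). Of 7 genes tested on the Paneth list 1, Guca2b, was called in each comparison, lower in both, and the other 6 were not called. Guca2b averaged 589 CPM in separately housed Tcra-/- and 342 CPM in WT mice, its highest groups. The mature enterocyte marker Alpi was highest in the same groups, with 767 and 535 CPM. The call of Guca2b is therefore not read as a change of Paneth cells. The median log2 fold change of the list, Guca2b included, was 0.41 between mice labelled Rag1-/- and WT mice and -0.18 between the Tcra-/- groups. Defa23, also listed, had 0 reads in all 12 mice. The Paneth list summed to 15815 to 17805 CPM in mice labelled Rag1-/-, 5625 to 20281 CPM in co-housed Tcra-/- mice, 8096 to 16912 CPM in separately housed Tcra-/- mice and 11252 to 16276 CPM in WT mice, and its part in the Sox9 level was not tested.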

How the data were processed

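The deposited table gives, per gene, unnormalized read counts for 12 libraries, per the file headers and the values. It also gives mm9 coordinates and the length of merged exons, per the file headers. The libraries were of stranded mRNA from the terminal ileum. Per the submitters' processing notes, bcl2fastq, TopHat2 2.0.11, Bowtie2 2.2.2.0, featureCounts of Subread 1.4.5-p1 and DESeq2 1.12.3 were used. No source used here names the annotation, whether counting used strand, or how reads with several alignments were handled.

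Of 23284 genes, 3810 had no read, and filterByExpr of edgeR 4.0.16 (R 4.3.3) kept 15866. Library sizes were scaled with edgeR's TMM factors (0.926 to 1.07). A robust quasi-likelihood fit covered the 12 libraries, with a term for each group, and left 8 residual degrees of freedom. Each contrast was tested two-sided, and a gene was called where its adjusted p (Benjamini-Hochberg over all genes tested) was under 0.01. The standard error is the size of the log2 fold change divided by the square root of F. CPM are counts scaled to 1000000 counts of the TMM-normalised library. The fit was tested on simulated data. The labels give no pairing and no batch, and replicates are separate mice. Labels of the separately housed Tcra-/- mice end in T2, T3 and T4, and those of all other mice in longer numbers, as in TCRaCox3155. What this numbering stands for is not stated, and it cannot be told apart from the housing group.

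The members and the lists were chosen with earlier results of these data known. All 10 members are named. From the pathway lists, the up to 3 called genes with the smallest p per list and comparison are named, with any count of 5 or fewer. Other called genes of these lists were named after their values were seen. Likeness used a prior count of 2 on the log2 CPM scale. Alternatives were relative log expression (RLE) factors, library size alone, scaling to pan-epithelial markers, other filters, only the 6 libraries compared, DESeq2 1.42.0, a threshold of 0.05 and leaving out each of the 6 mice of a comparison. Promoter windows are from RefSeq.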

Additional observations from a re-analysis of the deposited data

How the results depend on the processing

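No called member changed sign under any alternative run. Between mice labelled Rag1-/- and WT mice, the 2 members called became 0 with library size alone, 0 with scaling to pan-epithelial markers and 0 to 1 when each replicate was left out. Between co-housed and separately housed Tcra-/- mice, the 3 members called became 1 with pan-epithelial scaling and 1 to 3 with each replicate left out, Ephb2 being called in each of these fits. The 1 member called between co-housed Tcra-/- and WT mice, Lrig1, became 0 with library size alone (0.29, adjusted p = 0.0102). Between separately housed Tcra-/- and WT mice, the 0 members called became 1 with DESeq2 (adjusted p = 0.00593), 1 at a threshold of 0.05 and 0 to 1 with each replicate left out, the gene being Ephb2 each time. At a threshold of 0.05 the calls over all genes were 5009 for mice labelled Rag1-/- against WT, 4649 for co-housed Tcra-/- against WT and 3850 for separately housed Tcra-/- against WT. The last count, 2182 at 0.01, ran from 1281 to 1735 with each replicate left out. Library size alone called 713 genes higher and 3218 lower between mice labelled Rag1-/- and WT mice, against 1494 and 1820 with TMM, and 2480 higher and 3695 lower between the Tcra-/- groups, against 3347 and 2809. The fits that left out 1 mouse are given only for the 6 mice of each comparison. No paired analysis was possible because the labels give the mice no shared replicate numbers. The depth limits Ascl2 most, with 74 to 122 reads per library, and the spread between mice limits Olfm4.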

Other observations

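In separately housed Tcra-/- mice 9 of the 104 pathway genes were higher and 5 lower than in WT mice (edgeR), 13.5% called against 13.8% of all genes. Bmp4, a ligand that limits stem cells, was among the higher ones (log2 fold change 1.61, SE 0.22, adjusted p = 0.000108), as was Apcdd1, a membrane inhibitor of Wnt (1.36, SE 0.23). Lrp6 (0.58, SE 0.08), Fzd8 (0.92, SE 0.16) and Ryk (0.36, SE 0.07), all Wnt receptors, were higher too. Ccnd1 had -1.24 (SE 0.12) and Tcf7 -1.41 (SE 0.15). In co-housed Tcra-/- mice 8 pathway genes were higher and 9 lower than in WT mice, 16.3% called against 18.5% of all genes, with Lgr4 at 1.02 (SE 0.07), Ccnd1 at 1.41 (SE 0.12), Aqp4 at 1.84 (SE 0.26) and Wnt11 at 2.44 (SE 0.46) among the higher. These genes were named after their values were seen, their calls held whichever of the 6 mice compared was left out, and both comparisons share the WT mice.

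The genes whose profile over the 12 mice was most like that of Olfm4, looked up after its values were seen, were C1qtnf3 (root mean square difference 0.24), Lum (0.29) and Gpr182 (0.29). Lum, which encodes a matrix proteoglycan, is 1 of the 6 fibroblast markers above, and no other marker of that list was among these 3 genes. All 3 lay farther from Olfm4 than the 3 genes nearest to Lrig1, Ephb2 or Rnf43 lay from those members (up to 0.11).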
